A study of Mus musculus with 18 samples.

Results

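The vehicle-treated organoids are the 8 of 18 RNA-sequencing samples that received no receptor agonist, and they are described here as one baseline condition. Of these, 4 carried the label HCl and 4 the label DMSO, the solvents used as controls for norepinephrine and for UK 14,304, a selective α2-adrenergic agonist. The other 10 samples, 5 with norepinephrine and 5 with UK 14,304 (each at 1 µM), serve only as a comparison at the end. All samples were organoids from the small intestine of female wild-type C57BL/6 mice (the C57BL/6N mice used in the study were young adults), grown from crypts in Matrigel, treated after 4 passages and harvested after 4 days. The region of the small intestine was not stated, and villi were scraped off before crypts were taken. Sample titles carry a number from m1 to m5, read here as the mouse of origin. Vehicle samples came from mouse numbers 1 to 4, each with an HCl and a DMSO sample, so the 8 samples rest on 4 mice and means and SDs are given over 4 mouse numbers. No contrast between vehicle and agonist entered the choice of samples or the levels below.

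An intestinal organoid is a cyst of epithelium whose buds resemble crypts. Wnt, Notch, EGF and low BMP signalling keep Lgr5-positive stem cells dividing in the buds, and their daughters become absorptive enterocytes or secretory Paneth, goblet, enteroendocrine and tuft cells. Enterocytes take up sugars, amino acids, lipids and metals through membrane carriers, whereas Paneth cells secrete lysozyme and α-defensins. The culture has no blood vessels, nerves, muscle or immune cells of its own, so it shows which genes the epithelium expresses without them.

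The vehicle libraries held 22153675 to 26268471 counted reads. Levels are given as TPM, the reads of a gene divided by its exon length and scaled so that all genes of a sample sum to 1000000, which allows genes to be compared with each other. A ribosomal RNA gene, CT010467.1, took 0.346% to 0.414% of the reads in 4 vehicle libraries (HCl 1, 2 and 3, DMSO 4) and 2.02% to 3.06% in the other four (HCl 4, DMSO 1, 2 and 3), so each mouse number had a low and a high library. All 37 mitochondrially encoded genes were listed at 0 counts in all 18 samples, including genes every cell uses, so their level was not measured. Reads that fit more than 1 place were not counted. Of 12874 expressed genes with a reference transcript, 597 had under 50% of their positions unique to them, and their levels are too low by an unknown amount. Xist, transcribed from the inactive X chromosome of females, stood at a median of 259 TPM (222 to 356), and the Y-linked genes Ddx3y, Uty, Kdm5d and Eif2s3y were all off.

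A gene was called on at 1 TPM or more in all 8 samples and off at less than 0.1 TPM in all 8. On this rule 12890 of 55487 annotated genes were on (23.2%), 27792 were off (50.1%) and 14805 lay between. Among the 21974 protein-coding genes 11190 were on (50.9%), 6800 were off (30.9%) and 3984 lay between, with a median level of 1.82 TPM, and these shares are the background for the lists below. Single samples held 14588 to 14946 genes at 1 TPM or more. Off does not mean silent: for short genes a few reads already exceed 0.1 TPM, and a count of 0 only bounds the level by the TPM that 3 reads would give. Across the genes that were on, which are not independent replicates, the Pearson correlation of log2(TPM + 1) was 0.994 to 0.996 within the 4 pairs of samples with the same mouse number and 0.985 to 0.995 in the 24 pairs with different numbers.

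The baseline transcriptome was led by enterocyte and Paneth cell products. The 30 highest genes held a median of 17.7% of all TPM (14.9% to 20.5%), and 27 of them were protein-coding. Fabp1, the cytosolic fatty acid carrier of enterocytes, led the coding genes with 22647 TPM in the median sample (19183 to 27237) and 22850 ± 2495 TPM (SD, n = 4 mouse numbers). Its lowest value was above that of every other coding gene in every sample. The α-defensin Defa24 stood at 10218 TPM (7388 to 11720). Lypd8, a secreted protein that keeps flagellated bacteria off the epithelium, stood at 7102 TPM, Apoa1, the main protein of high-density lipoprotein, at 6835 TPM, and the galectins Lgals2 and Lgals4 at 5820 and 4544 TPM.

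Secretory and stem cell products were also among the 30. Lysozyme (Lyz1) reached 4339 TPM (2833 to 5054) and intelectin (Itln1), a sugar-binding Paneth and goblet cell product, 4091 TPM (3250 to 4778). Olfm4, secreted by crypt base stem cells, reached 4026 TPM (2764 to 5403). Reg1, a secreted C-type lectin, had a similar median of 4076 TPM but spanned 543 to 7552 TPM, a far wider spread than its neighbours in rank. The remaining absorptive genes were Rbp2 for retinol (3931 TPM), the apolipoprotein Apoa4 (3732 TPM, with 39.1% of its positions unique), the antibody transporter Pigr (3748 TPM), the alcohol dehydrogenase Adh1 (3011 TPM), Oat of ornithine metabolism (3174 TPM) and Cps1, which makes carbamoyl phosphate for the urea cycle (3001 TPM). The rest included the epithelial keratin Krt19 (3168 TPM) and genes that all cells use. Among the latter were Eef2 (4647 TPM), Eef1a1 (3885 TPM), Rpl4 (3332 TPM), Hsp90ab1 (3138 TPM) and Actb (2865 TPM). With length counted as the positions unique to a gene, a choice made after seeing the data, 21 of the 30 were again among the 30 highest. The non-coding Mir6236 and Gm23935 could not be, because genes with fewer than 100 unique positions were left out. Fabp1 then stood at 14794 TPM, Eef1a1 at 8381 TPM and Apoa4 at 5872 TPM.

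Of the 3 non-coding entries among the 30, CT010467.1 itself defined the low and high libraries. The other 2, Mir6236 and Gm23935, were higher in the high libraries. CT010467.1 stood at 6765 to 7884 TPM in the 4 low libraries and at 38427 to 57981 TPM in the 4 high libraries, and Mir6236 at 2873 to 3357 against 9192 to 15649 TPM. The gap for CT010467.1 follows from that definition. How many of all genes separate the same 2 sets of libraries was not counted. Among coding genes alone, the 27 genes held 14.1% to 15.8% of coding TPM, a narrower band.

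**Figure D1:**
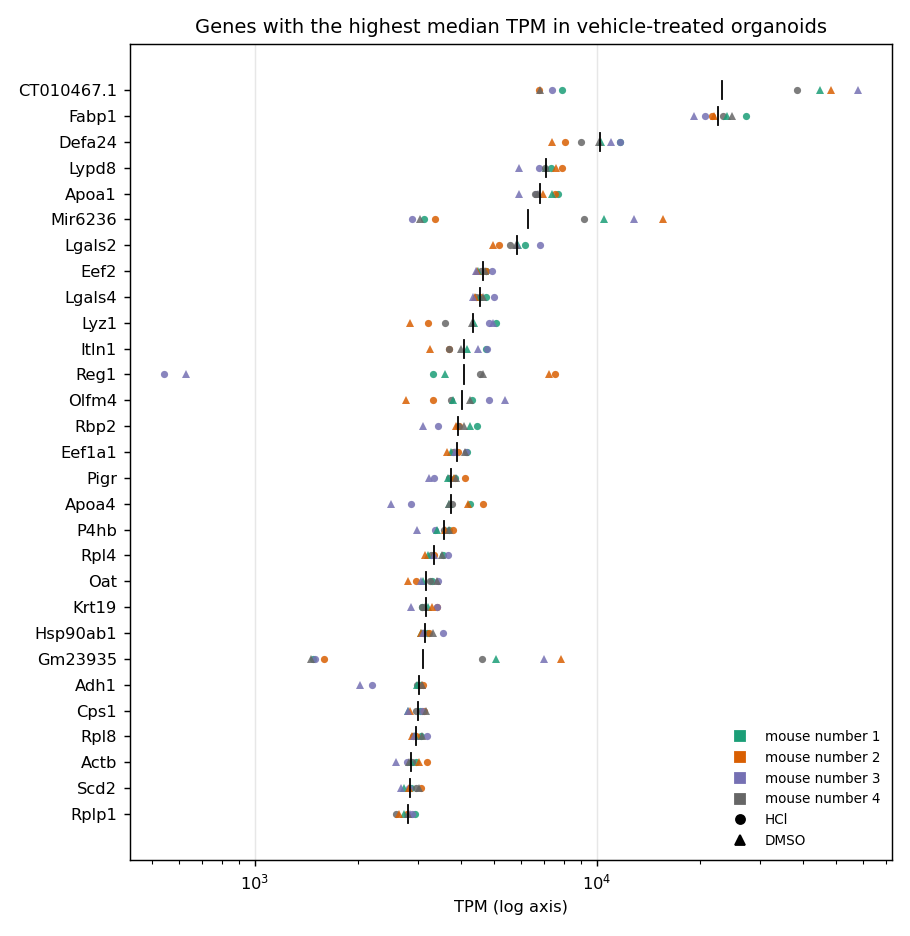
TPM (log axis) of 29 of the 30 genes with the highest median, with a point for each of the 8 vehicle samples. Fabp1 is the highest coding gene at 19183 to 27237 TPM, and Reg1 spans 543 to 7552 TPM while most other coding genes keep a narrow band.

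The promoters of the most expressed intestinal genes differed in base composition from those of other expressed genes. Promoter windows of RefSeq (GRCm38.p6, 250 bases before to 50 after each start, 27025 windows with a gene symbol) were scored by the CpG observed/expected ratio. A ratio over 0.6 was found in 36.4% of all windows, in 74.0% of 8949 coding genes that were on and in 13.4% of 4763 that were off. By level the share rose from 57.6% at 1 to 10 TPM to 78.9% at 10 to 100 TPM, and was 73.6% at 100 to 1000 TPM and 44.1% in the 68 windows of genes above 1000 TPM. Of the enterocyte list 2 of 14 windows passed (Mttp and Anpep), of the Paneth cell list 0 of 8, and of the proliferation list 10 of 11. TATAAA, the core of the TATA box, was present on either strand in 14.2% of all windows, in 7.06% of windows of on genes, in 24.3% of off genes and in 7 of 14 enterocyte windows. These shares are descriptions, because the lists are short and a match of letters is not a binding site.

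The contrast is illustrated by 6 windows, each showing the 120 bases before the RefSeq start, 5′ to 3′ on the strand of the gene. The first 3 belong to abundant enterocyte or secreted products with few CpGs. Capitals mark TATAAA and 2 further motifs, each on either strand and with no overlapping matches in the bases shown. The motif GTTAAT is a core bound by HNF1 factors and occurs in 7.2% of all windows. The motif CAAAGT is part of sites bound by HNF4 factors and occurs in 14.3%. Fabp1 lies at chr6:71199759-71199878 (+), Rbp2 at chr9:98490417-98490536 (+) and Reg1 at chr6:78425863-78425982 (+).
Fabp1: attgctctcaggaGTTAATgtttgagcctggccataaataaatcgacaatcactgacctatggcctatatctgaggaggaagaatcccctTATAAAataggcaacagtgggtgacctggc
Rbp2: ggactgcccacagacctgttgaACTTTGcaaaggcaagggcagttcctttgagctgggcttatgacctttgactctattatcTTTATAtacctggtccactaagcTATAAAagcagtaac
Reg1: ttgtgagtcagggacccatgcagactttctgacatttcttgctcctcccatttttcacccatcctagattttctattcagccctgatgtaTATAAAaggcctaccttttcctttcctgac
The full windows of Fabp1, Rbp2 and Reg1 held 3, 4 and 0 CG pairs. In the bases shown, Fabp1 had TATAAA and GTTAAT, Rbp2 had TATAAA on both strands and CAAAGT, and Reg1 had TATAAA alone. The sense-strand match of Rbp2 lay nearer the start than a TATA box does, and its other match was on the opposite strand.

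In the other 3 windows capitals mark CG, which 94.2% of all windows contain at least once. They belong to Mttp, the lipid-loading protein of lipoprotein assembly and an exception within the enterocyte list, and to Slc39a1, a zinc importer, and Gna13, a G protein subunit, which were among the steadiest genes across samples. Mttp lies at chr3:138143419-138143538 (−), Slc39a1 at chr3:90248072-90248191 (+) and Gna13 at chr11:109362674-109362793 (+).
Mttp: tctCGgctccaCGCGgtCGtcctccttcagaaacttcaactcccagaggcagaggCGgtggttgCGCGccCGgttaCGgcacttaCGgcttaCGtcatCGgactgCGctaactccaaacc
Slc39a1: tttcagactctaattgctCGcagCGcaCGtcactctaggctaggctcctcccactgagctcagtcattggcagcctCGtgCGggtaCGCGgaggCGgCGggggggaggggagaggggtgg
Gna13: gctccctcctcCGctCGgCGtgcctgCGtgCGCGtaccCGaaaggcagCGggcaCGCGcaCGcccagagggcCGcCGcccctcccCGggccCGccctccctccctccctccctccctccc
Their full windows held 27, 23 and 40 CG pairs, while the levels of these genes (1272, 94.5 and 103 TPM) were far below that of Fabp1. The 6 windows are chosen examples, and others depart from the contrast. The window of Cybrd1, an iron reductase gene, held 23 CG pairs with a ratio of 0.657. That of Akp3, an alkaline phosphatase gene with a ratio of 0.247, had no TATAAA in its 120 bases.

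**Figure D2:**
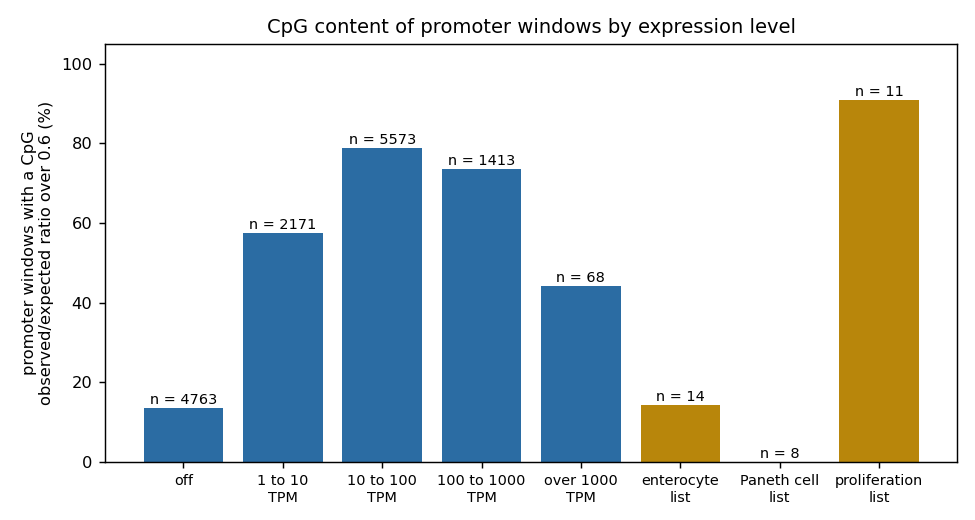
Percent of RefSeq promoter windows with a CpG observed/expected ratio over 0.6, for coding genes that were off or in 4 bands of median TPM (blue) and for 3 marker lists (gold), with the number of windows above each bar. The share is 78.9% at 10 to 100 TPM, 44.1% above 1000 TPM and 0 of 8 for the Paneth cell list.

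The labelled tissue was checked against its defining markers. All 12 genes of the pan-epithelial list were on, among them Krt19 (3168 TPM), the adhesion molecule Epcam (2332 TPM, 2185 to 2463), the keratins Krt8 (2039 TPM) and Krt18 (1330 TPM), villin (Vil1, 1178 TPM) and E-cadherin (Cdh1, 1111 TPM). All 16 enterocyte genes were on, with a median member at 1402 TPM and a summed level of 50836 to 68345 TPM. Besides Fabp1 these included Fabp2 (2558 TPM), sucrase-isomaltase (Sis, 2424 TPM), the alkaline phosphatase Alpi (1532 TPM), Mttp (1272 TPM), Apob (840 TPM), the digestive enzymes Mgam (714 TPM), Anpep (576 TPM) and Treh (236 TPM), lactase (Lct, 187 TPM) and Dpp4 (102.3 TPM). Alpi spanned 582 to 3187 TPM, whereas Apob spanned only 819 to 970 TPM. In bulk samples fewer cells of a type and less RNA per cell cannot be told apart, so these levels are not cell shares.

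Crypt base stem cell genes were on in 14 of 15 cases. After Olfm4, the highest were Slc12a2 (369 TPM), Cdca7 (232 TPM), Prom1 (173 TPM), Smoc2 (164 TPM), the Wnt target Axin2 (124 TPM) and Sox9 (109 TPM). Lgr5, the R-spondin receptor that defines these cells, stood at 65.4 TPM (55.1 to 73.9) and the factor Ascl2 at 32.1 TPM. Tnfrsf19 alone lay between on and off (0.454 TPM). All 14 proliferation genes were on, with Mki67 at 262 TPM (242 to 319) and Top2a at 215 TPM, and all 8 genes linked to reserve or regenerating cells were on, from Hopx (201 TPM) and Lrig1 (154 TPM) down to Clu (20.7 TPM), Ly6a (7.69 TPM) and Anxa1 (3.05 TPM).

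Every secretory lineage was represented. The 11 Paneth cell genes summed to 15176 to 24468 TPM, with Ang4 (900 TPM), Defa17 (830 TPM) and Mmp7, the protease that activates defensins (331 TPM), below Defa24, Lyz1 and Itln1. Defa17 and Defa22 have only 8.05% and 25.1% of their positions unique, so reads of near-identical α-defensins were largely lost and their levels are uncertain. All 9 goblet cell genes were on, led by Spink4 (2196 TPM), the trefoil factor Tff3 (1660 TPM) and the mucus proteins Fcgbp (760 TPM) and Zg16 (645 TPM), whereas the main gel-forming mucin Muc2 stood at 125 TPM.

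Of the 17 enteroendocrine genes 15 were on. The hormones were led by Gip, the incretin of K cells (518 TPM, 419 to 617), followed by somatostatin (Sst, 106 TPM), proglucagon (Gcg, 91.6 TPM), cholecystokinin (Cck, 49.9 TPM), ghrelin (Ghrl, 21 TPM), neurotensin (Nts, 11.7 TPM) and secretin (Sct, 10.4 TPM). Peptide YY (Pyy) was lower and uneven (5.98 TPM, 1.18 to 11.3), and gastrin and Insl5 had a median of 0. The granule protein Chgb (404 TPM) exceeded Chga (87.4 TPM). Tuft cell genes were lowest among the lineages, with 9 of 11 on at 1.46 to 10.5 TPM. These included Avil (8.18 TPM), the taste channel Trpm5 (6.90 TPM) and Dclk1 (3.81 TPM), while the tuft cell cytokine Il25 (0.133 TPM) and the factor Gfi1b (0.445 TPM) were not on. Of the 5 M cell genes Gp2, the receptor of mature M cells, had 0 counts in all 8 libraries, which allows up to 0.245 TPM, and Spib (6.15 TPM), Ccl20 (12.2 TPM) and Ccl9 (78.8 TPM) were on.

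**Figure D3:**
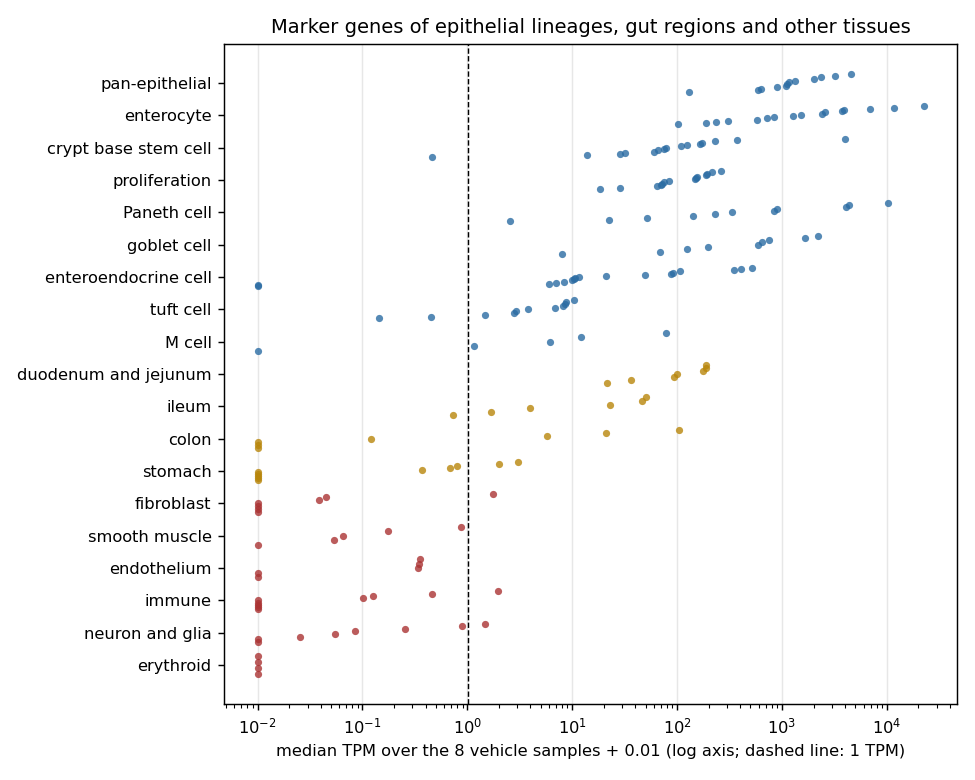
Median TPM over the 8 vehicle samples plus 0.01 (log axis) of each marker gene, grouped by epithelial lineage (blue), gut region (gold) and other tissues (red), with a dashed line at 1 TPM. Pan-epithelial and enterocyte genes lie at 102.3 TPM or above, tuft cell genes below 11 TPM, and the markers of other tissues below 1 TPM except Pdgfrb, Itgam and Tubb3.

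Among regional markers, genes of the proximal small intestine stood higher than ileal ones, with median members at 98.8 and 13.5 TPM. All 7 genes of duodenum and jejunum were on, from Gata4 (188 TPM) and lactase to the iron reductase Cybrd1 (177 TPM), the iron exporter Slc40a1 (36.2 TPM) and Pdx1 (21.2 TPM). Of 6 ileal genes 4 were on, including the basolateral bile acid exporters Slc51a (51 TPM) and Slc51b (46.4 TPM), but the apical bile acid importer Slc10a2 stood at 3.98 TPM and the hormone Fgf15 at 1.67 TPM. The ileal bile acid-binding protein Fabp6 was the most erratic of these, at 0.311, 28.3, 48.2 and 12.0 TPM in HCl samples 1 to 4 and at 17.8, 19.4, 68.4 and 26.5 TPM in DMSO samples 1 to 4. Of 7 colonic genes found 3 were on, among them Slc26a3 (103 TPM) and Aqp8 (21 TPM), which the small intestine also expresses at some level, whereas Car1, Hoxb13 and Hoxd10 had 0 counts in all 8 libraries. Of 10 stomach genes only the proton pump subunit Atp4a was on (3.04 TPM), and Gkn2 had 0 counts.

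Markers of the cell types that a crypt preparation could carry along were at or near 0. Over the 7 fibroblast genes the sum was 1.37 to 2.39 TPM and came almost all from Pdgfrb (1.74 TPM), whereas the collagens Col1a2 and Col3a1 and the matrix proteins Dcn and Lum had 0 counts. None of the 5 smooth muscle, 5 endothelial, 8 neuronal and glial or 4 erythroid genes was on, although Tubb3 (1.48 TPM, 0.437 to 1.9) was among those detected. Of 9 immune genes Itgam alone was on (1.97 TPM, with 26.1% of its positions unique), the pan-leukocyte marker Ptprc stood at 0.116 TPM, and the macrophage marker Adgre1 and the mast cell marker Cpa3 had 0 counts.

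Among transcription factors, the intestinal set was on nearly whole: 29 of 30 passed, with a median of 62.5 TPM. The nuclear receptor Hnf4a, which binds the promoters of many enterocyte genes, led with 1088 TPM and was among the steadiest genes listed here (1048 to 1165 TPM). It was followed by Elf3 (728 TPM), the vitamin A-responsive homeobox factor Isx (715 TPM), Creb3l3 (425 TPM), Cdx1 (375 TPM), Hnf4g (357 TPM), Klf5 (334 TPM) and Cdx2 (322 TPM). Of the Wnt effectors Tcf7l2 (34.4 TPM) and Tcf7 (17.6 TPM) were on and Lef1 was off (0.00839 TPM). Prdm1, which marks fetal and suckling enterocytes, was low (2.78 TPM).

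Factors of the secretory lineages were lower, with 13 of 17 on and a median of 7.18 TPM. The highest were Xbp1 of the secretory stress response (270 TPM), the Notch target Hes1 (154 TPM) and Hes6 (120 TPM), then Atoh1, the switch to secretory fate (28.7 TPM), Bhlha15 (26.1 TPM), Spdef (24.5 TPM), the endocrine progenitor factor Neurog3 (15.0 TPM) and the tuft cell factor Pou2f3 (5.09 TPM). Pax6, Isl1 and Gfi1b lay between on and off. Of 33 factors that mark other tissues 27 were off, 18 of them with 0 counts, including Sox2, Pax2, Nkx2-1, Ptf1a, Myod1, Tal1 and Pou5f1. The 3 that were on included Pdx1, which is also in a regional list, and Pax8 (3.73 TPM).

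Of 49 nuclear receptors 34 were on and 8 off. After Hnf4a and Hnf4g came the vitamin D receptor Vdr (272 TPM), the xenobiotic receptor Nr1i2 (132 TPM), the glucocorticoid receptor Nr3c1 (109 TPM), Esrra (104 TPM), Thra (92.5 TPM), Rxra (82.4 TPM), the oxysterol receptor Nr1h2 (71.3 TPM), the fatty acid receptor Ppara (70.1 TPM) and the bile acid receptor Nr1h4 (68.6 TPM). The estrogen and progesterone receptors were not on: Esr1 stood at 0.0159 TPM, Esr2 at 0.0449 TPM and Pgr at 0.0765 TPM. Rora (0.259 TPM) lay between on and off, and Rorb was off.

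Receptors of the pathways that maintain the crypt were mostly on. Of 18 Wnt receptor genes 14 passed, led by Fzd5 (169 TPM), the R-spondin receptor Lgr4 (132 TPM), the co-receptor Lrp5 (71.8 TPM) and Lgr5, with Lgr6 and Ror1 off. Of 9 Notch genes 7 were on, the ligand Dll1 (50.2 TPM) being the highest and Notch1 (15.8 TPM) and Notch2 (12.1 TPM) the main receptors. Of 12 BMP and TGF-β receptors 10 were on, led by Bmpr1a (113 TPM) and Acvr1b (101.9 TPM), with Bmpr1b off. Among 26 receptor tyrosine kinases 17 were on. Erbb3 (288 TPM) and Erbb2 (147 TPM) exceeded the EGF receptor Egfr (18.0 TPM, 17.3 to 19.8), whereas Erbb4 was off. Fgfr2, Fgfr3 and Fgfr4 stood at 23, 15.7 and 18.8 TPM and Fgfr1 at 0.0454 TPM, and the crypt positioning receptors Ephb2 and Ephb3 at 63.8 and 36.4 TPM.

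**Figure D4:**
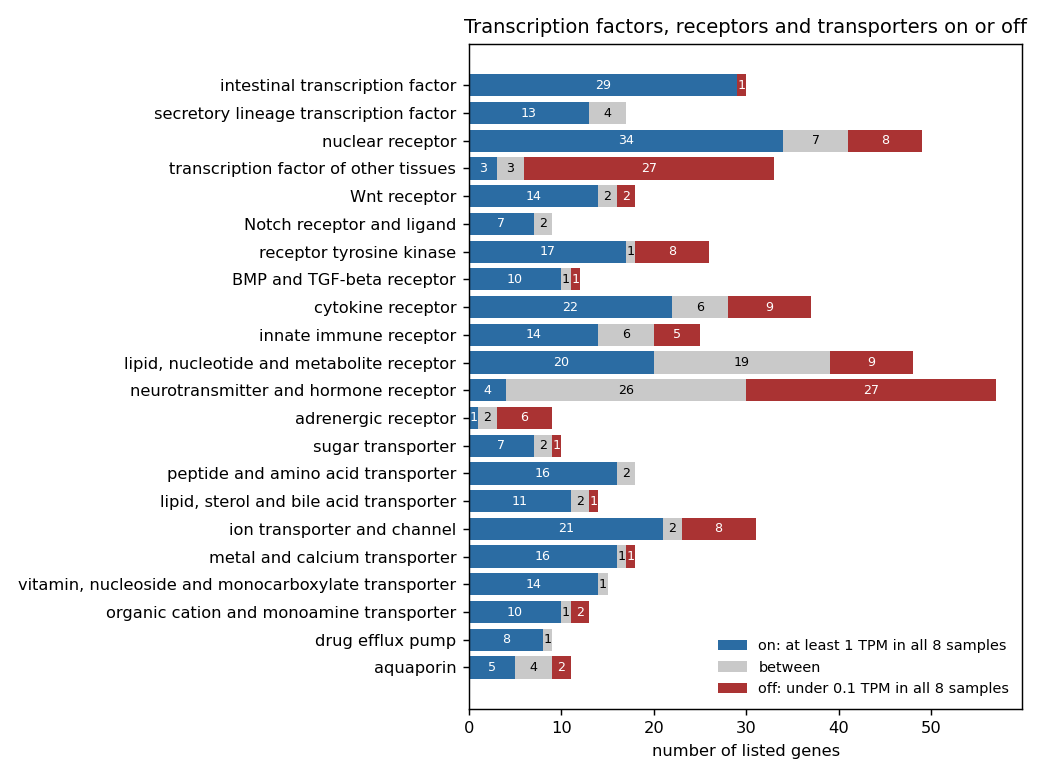
Number of listed transcription factors, receptors and transporters that were on (blue, at least 1 TPM in all 8 samples), between (grey) or off (red, under 0.1 TPM in all 8). In the plot 29 of 30 intestinal factors are on, 27 of 33 factors of other tissues are off, and 4 of 57 neurotransmitter and hormone receptors are on.

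Cytokine receptors were on in 22 of 37 cases. The interferon-γ receptor subunits Ifngr1 (333 TPM) and Ifngr2 (218 TPM), the lymphotoxin receptor Ltbr (213 TPM) and the TNF receptor Tnfrsf1a (176 TPM) were the highest. The interleukin-13 receptor subunit Il13ra1 (95.9 TPM), the interleukin-22 pair Il10rb (66.0 TPM) and Il22ra1 (65.3 TPM) and the type III interferon receptor Ifnlr1 (19.0 TPM) were on as well. The leukocyte receptors Il7r, Il10ra, Csf2rb and Csf3r had 0 counts. The shared chain Il6st was on (17.6 TPM), but its partners Il6ra (0.315 TPM), Lifr (0 TPM in the median sample) and Osmr (0.00542 TPM) were not.

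Innate sensors were led by cytosolic receptors. Of 25 genes 14 were on, headed by the inflammasome sensor Nlrp6 (440 TPM, 378 to 476). The set that senses flagellin and bacterial secretion systems followed, with Naip1 (112 TPM), Naip6 (97 TPM), Naip2 (80.7 TPM), Nlrc4 (80.1 TPM) and Naip5 (46.6 TPM), although the Naip genes resemble each other and have 63.1% to 80.6% unique positions. The toll-like receptors were low: Tlr3, which senses double-stranded RNA, stood at 17.3 TPM, Tlr1 at 4.61 TPM and Tlr2 at 2.63 TPM, whereas the flagellin receptor Tlr5 (0.866 TPM) and the lipopolysaccharide receptor Tlr4 (0.137 TPM) were not on. Nod2 (0.646 TPM) lay between and Nlrp3 was off.

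The adrenergic receptor family, to which the agonists of the study are addressed, was represented by a single gene above the threshold. Adra2a, which couples to inhibitory G proteins, stood at 21.9, 19.8, 23.1 and 21.3 TPM in HCl samples 1 to 4 and at 20.7, 17.5, 19.9 and 23 TPM in DMSO samples 1 to 4, or 20.9 ± 1.56 TPM (SD, n = 4 mouse numbers). These values lay close together, and the ranges of both vehicles overlapped. Adra2c had a median of 0 (highest 0.117 TPM). Of the 9 genes 6 were off, with 0 counts for Adra1b, Adra1d, Adra2b and Adrb3, where 3 reads would give 0.122 to 0.258 TPM. In the test between mouse numbers described below Adra2a did not pass (log2 range 0.22, adjusted p = 0.10).

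Other transmitter and hormone receptors were scarce. Of 57 genes 4 were on, 26 lay between and 27 were off, against 50.9% on among all coding genes. The vasoactive intestinal peptide receptor Vipr1 dominated the list (114 TPM, 96.8 to 132) and was followed by the muscarinic receptor Chrm3 (8.35 TPM), the serotonin receptor Htr4 (2.28 TPM) and the galanin receptor Galr3 (2.19 TPM, 73.4% unique). Sstr2 (1.42 TPM) and Gipr (0.952 TPM) lay just around the threshold, Glp1r was at 0.128 TPM and Glp2r off.

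Receptors for lipids, nucleotides and metabolites were on in 20 of 48 cases. They were led by the protease-activated receptor F2rl1 (85.4 TPM), the lysophosphatidic acid receptor Lpar5 (55.2 TPM), the ADP receptor P2ry1 (34.4 TPM) and the orphan Gprc5a (31.1 TPM). The long-chain fatty acid receptor Ffar4 (13.0 TPM), the short-chain receptors Ffar2 (1.9 TPM) and Ffar3 (1.39 TPM), the zinc receptor Gpr39 (17.9 TPM) and the prostaglandin receptor Ptger4 (15.2 TPM) were on. Ptger2 had 0 counts, and the bile acid receptor Gpbar1 stood at 0.138 TPM.

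Of 338 solute carriers 206 were on (60.9%, against 50.9% of all coding genes). The sodium-glucose cotransporter Slc5a1 was the highest at 1350 TPM (1155 to 1433), whereas the fructose carrier Slc2a5 (131 TPM), Slc5a4b (124 TPM), Slc2a1 (117 TPM) and the basolateral glucose carrier Slc2a2 (94.2 TPM) were about an order of magnitude lower. The neuronal glucose carrier Slc2a3 was off and the muscle and fat carrier Slc2a4 stood at 0.225 TPM. Of 18 peptide and amino acid carriers 16 were on, among them the taurine carrier Slc6a6 (232 TPM), the cystine carrier subunits Slc3a1 (225 TPM) and Slc7a9 (95.8 TPM), the glutamine carrier Slc1a5 (170 TPM), the neutral amino acid carrier Slc6a19 (90.1 TPM) and the peptide carrier Slc15a1 (36.0 TPM).

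Lipid handling genes were on in 11 of 14 cases, with the cholesterol importer Npc1l1 at 250 TPM, the fatty acid carrier Slc27a4 at 221 TPM and the sterol exporters Abcg5 and Abcg8 at 177 and 154 TPM. The liver transporters Abcb11 and Abcb4 stood at 0.0651 and 0.0582 TPM. Of 9 drug efflux pumps 8 were on, led by Abcc2 (259 TPM), Abcc3 (169 TPM) and Abcb1a (151 TPM), while its paralog Abcb1b stood at 0.203 TPM.

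Ion transport genes were on in 21 of 31 cases. Atp1b1, a β subunit of the sodium pump, stood at 1065 TPM. The machinery of chloride secretion was on, with Slc12a2 (369 TPM), the potassium channel subunits Kcne3 (147 TPM) and Kcnq1 (146 TPM) and the chloride channel Cftr (113 TPM), as were the sodium-proton exchanger Slc9a3 (66.7 TPM) and the anion exchangers Slc26a3 (103 TPM) and Slc26a6 (86.7 TPM). Of the epithelial sodium channel only Scnn1a was on (8.57 TPM), Scnn1b was off and Scnn1g had a median of 0. Aquaporins were on in 5 of 11 cases, with Aqp1 (192 TPM) and Aqp4 (113 TPM) the highest.

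Metal and calcium carriers were on in 16 of 18 cases, and several varied widely. The iron importer Slc11a2 stood at 192 TPM (77.4 to 479), its reductase Cybrd1 at 177 TPM (67.9 to 468) and the calcium-binding S100g at 520 TPM (235 to 956), whereas the ferroxidase Heph (98.8 TPM, 93.8 to 111) and the copper importer Slc31a1 (199 TPM, 180 to 209) varied little. The apical calcium channel Trpv6 had a median of 0 and Trpv5 had 0 counts. Of 15 carriers of vitamins, nucleosides and monocarboxylates 14 were on, led by Slc16a1 (186 TPM). Of 13 organic cation and monoamine carriers 10 were on. The serotonin carrier Slc6a4 (31.2 TPM) and the dopamine carrier Slc6a3 (16.3 TPM) were on, whereas the norepinephrine carrier Slc6a2 had 0 counts, which allows up to 0.0777 TPM.

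Whole gene families showed the same selectivity. Of 39 Hox genes only Hoxa3 was on (1.70 TPM). Gata4, Gata6 (75.9 TPM) and Gata5 (66.5 TPM) were on, and the blood factors Gata1, Gata2 and Gata3 were off. Of 23 claudins 8 were on, with Cldn7 (894 TPM), Cldn15 (646 TPM), Cldn3 (597 TPM) and Cldn2 (432 TPM) far above the rest, and of 53 keratins 9 were on. Of 11 mucins the membrane mucins Muc13 (1361 TPM), Muc3 (289 TPM) and Muc4 (46.9 TPM) and the secreted Muc2 were on. Potassium channels were on in 14 of 93 cases, olfactory receptors in 1 of 1093 (Olfr165, 1.71 TPM), and vomeronasal (327 genes) and bitter taste receptors (35 genes) in none. Genes often used as references ranged widely: Actb, B2m (1339 TPM) and Hprt (394 TPM) were well measured, but Gapdh was listed at only 28.3 TPM, with 17.5% of its positions unique.

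Most genes varied little across the 8 samples. Among 3792 genes with a median of at least 50 TPM, the median coefficient of variation was 5.73%. Among the steadiest were Tmem258, a subunit of the glycosylation complex (1.51%, 120 to 125 TPM), Gna13 (2.10%), Slc39a1 (2.14%), Ttll12 (2.24%), the polyamine enzyme Odc1 (2.28%), the phosphatase Ptpn11 (2.28%), Aes (2.33%), Ndufa13 of respiratory complex I (2.36%) and the kinase Irak1 (2.42%). Of the 10 with the highest coefficient, 5 were non-coding genes: n-R5-8s1 (129%), CT010467.1 (81.1%), Gm23935 (70.0%), Gm15564 (68.0%) and Mir6236 (67.8%). The 5 coding genes were the alkaline phosphatase Akp3 (120%), 2210407C18Rik (70.5%), Cybrd1 (67.9%), Slc11a2 (67.3%) and Reg1 (65.3%), and in each of them both samples of mouse 2 were the highest and both samples of mouse 3 the lowest.

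Differences between mouse numbers were therefore tested across all genes, asking whether a gene differed between mice by more than the 2 vehicle samples of a mouse differed (edgeR quasi-likelihood test with the vehicle as a term). Of 15234 genes tested 2479 passed at an adjusted p under 0.05, a background of 16.3%, and 4131 had an unadjusted p under 0.05. No gene passed for the vehicle term, HCl against DMSO (0 at an adjusted p under 0.05 by edgeR and by DESeq2, 392 at an unadjusted p under 0.05 by edgeR). The share called grew with level, from 7.19% under 1 TPM and 10.5% at 1 to 10 TPM to 17.0% at 10 to 100 TPM and 35.6% at 100 TPM or more. Most differences were small, with a median log2 range of 0.38 between the highest and the lowest mouse for called genes and 0.21 for all tested, and 367 called genes had a range above 1. Among called genes 52.2% were highest in mouse 2 and 57.5% lowest in mouse 3, against 29.8% and 33% of all genes tested. Another 30.6% were highest in mouse 3 and 28.9% lowest in mouse 2, against 33.2% and 31.1% of all genes tested. The shares of called genes are the background for counts by mouse in the lists below. The first principal component (34.7% of the variance) placed mouse 2 at 23.8 and 25.7 and mouse 3 at −26.4 and −29.2, with mouse 1 and mouse 4 between −1.47 and 3.66. Differences between animals, between cultures and between dissected regions cannot be told apart here.

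The 10 called genes with the widest range mostly followed this axis. Akp3, an intestinal alkaline phosphatase, averaged 162, 1217, 7.17 and 297 TPM in mice 1 to 4, a log2 range of 7.46 (adjusted p = 0.0075). Its adjusted p rose to 0.0653 without the HCl sample of mouse 2, to 0.0679 without the DMSO sample of mouse 2 and to 0.0645 without the DMSO sample of mouse 3. Pdx1, a homeobox factor of duodenum and pancreas, averaged 18.0, 57.6, 1.49 and 23.9 TPM (log2 range 5.23, adjusted p = 9.1e-20), and Plut, an antisense RNA beside it on chromosome 5 whose reads were counted without strand, 4.13, 12.8, 0.190 and 6.56 TPM. The HCl and DMSO samples of each mouse gave nearly the same Pdx1 level, 59.4 and 55.8 TPM in mouse 2 and 1.28 and 1.70 TPM in mouse 3.

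Slc40a1, the only known cellular iron exporter, averaged 29.1, 103, 7.96 and 41.6 TPM (log2 range 3.75), Reg1 3445, 7409, 585 and 4609 TPM (3.74), and carbonic anhydrase Car2 9.998, 31.4, 2.71 and 9.34 TPM (3.55). 2210407C18Rik (589, 1504, 179 and 661 TPM, adjusted p = 3.8e-24) and Anxa10 (29.3, 89.0, 10.6 and 23.8 TPM, adjusted p = 3.3e-06, and 0.0675 without the DMSO sample of mouse 3) had the same order of highest and lowest. All 8 of these genes were highest in mouse 2 and lowest in mouse 3. Enpp7, the alkaline sphingomyelinase (21.2, 8.42, 66.6 and 20.0 TPM), and Gsdmc4, a gasdermin (5.73, 1.46, 12.1 and 5.20 TPM), ran the opposite way.

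**Figure D5:**
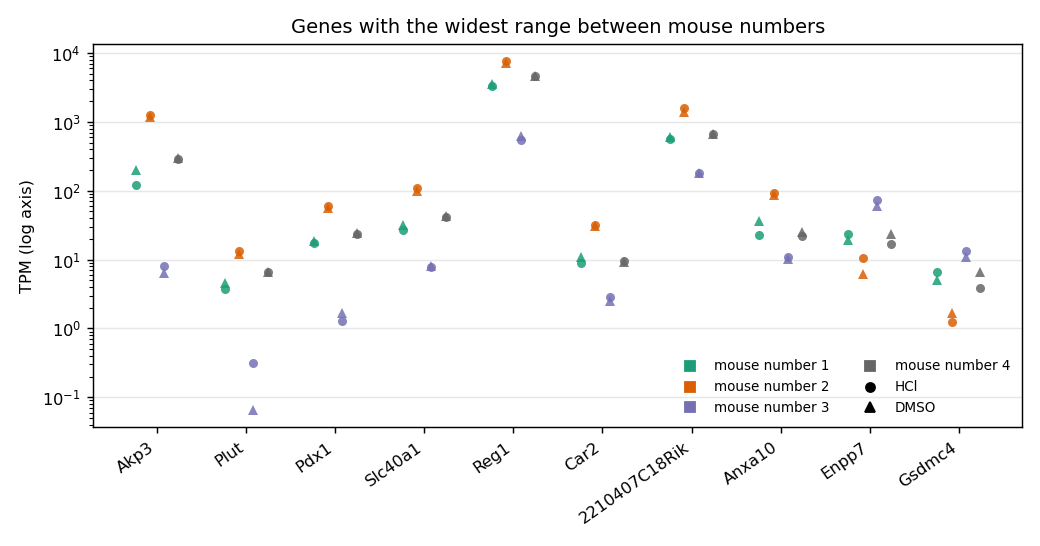
TPM (log axis) of the 10 called genes with the widest range between mouse numbers, with circles for HCl and triangles for DMSO samples and a colour for each mouse number. In 8 genes mouse 2 is highest and mouse 3 lowest, in Enpp7 and Gsdmc4 the reverse holds, and the pair of samples of a mouse lies close together.

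The regional lists differed between mice, and not all in the same order. All 7 genes of duodenum and jejunum were called, 6 of them lowest in mouse 3 and 5 highest in mouse 2, with Cybrd1 at 154, 435, 71.3 and 197 TPM in mice 1 to 4 (log2 range 2.68, adjusted p = 1.5e-23). Lactase was the exception, lowest in mouse 2 (195, 100.8, 236 and 187 TPM). Of 6 ileal genes 3 were called, all highest in mouse 3 and lowest in mouse 1: Slc10a2 (1.64, 5.94, 7.91 and 2.64 TPM), Fgf15 (1.46, 1.89, 4.09 and 1.67 TPM) and the vitamin B12 receptor Cubn (0.301, 1.06, 2.74 and 0.376 TPM). Fabp6 had the same highest and lowest mouse but was not called (log2 range 3.75, adjusted p = 0.42). Of the metal and calcium carriers 11 of 16 tested were called, 10 of them highest in mouse 2 and lowest in mouse 3, such as Slc11a2 (152, 457, 77.9 and 220 TPM) and S100g (474, 902, 245 and 558 TPM). The median log2 range was 1.74 over the ileal list, 1.34 over the 3 colonic genes tested, 1.15 over the duodenum and jejunum list and 0.53 over the metal list, against 0.21 for all genes tested.

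Lineage genes differed between mice as well. Of the 11 Paneth cell genes 10 were called and all 10 were lowest in mouse 2, with Lyz1 at 4707, 3016, 4900 and 3952 TPM and Mptx2 at 160, 68.8, 144 and 134 TPM (median log2 range of the list 0.62). Of 15 stem cell genes 14 were called, 11 highest in mouse 3, among them Olfm4 (4057, 3045, 5124 and 3999 TPM) and Axin2 (120, 108, 159 and 128 TPM), with a median log2 range of 0.28. Of 16 enterocyte genes 15 were called, 9 lowest in mouse 3 (Fabp1, Alpi, Apoa4, Rbp2 and others) and 6 lowest in mouse 2 (Sis, Mgam, Dpp4, Lct and Fabp2 among them). Among all called genes 57.5% were lowest in mouse 3 and 28.9% in mouse 2. Of 15 enteroendocrine genes tested 10 were called, 9 of them lowest in mouse 3 (median log2 range 0.66), with Sst at 92.7, 156, 76.2 and 122 TPM, whereas Pyy was lowest in mouse 1 (2.36, 7.29, 9.65 and 3.90 TPM). Goblet cell genes were split, Clca1 (196, 371, 153 and 195 TPM) and Zg16 (663, 850, 503 and 638 TPM) being highest in mouse 2 and Muc2 (112, 135, 148 and 118 TPM) in mouse 3. By contrast 2 of 14 proliferation genes (Top2a and Mcm2) and 2 of 12 pan-epithelial genes (Krt20 and Cldn3) were called, shares near the background of 16.3%. At 100 TPM or more, where all 12 pan-epithelial genes lay, 35.6% of genes were called, so the background is higher for highly expressed lists. Hnf4a was among the genes that did not pass (log2 range 0.04, adjusted p = 0.93).

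Of 29 intestinal transcription factors tested 17 were called. Near the 52.2% and 30.6% of all called genes, 8 of them were highest in mouse 2 and 6 in mouse 3. The former included Onecut2 (40.3, 65.0, 22.9 and 46.1 TPM), Gata4 (184.7, 200.2, 148 and 192 TPM) and Klf4 (48.0, 67.6, 49.6 and 48.3 TPM). The latter included Cdx1 (375, 339.9, 419 and 370.1 TPM), Myb (58.4, 50.9, 68.1 and 57.5 TPM) and the stem cell factor Ascl2 (33.3, 28.8, 40.5 and 32.0 TPM). Several Hoxb genes gave a different grouping. Hoxb9 averaged 0.331, 5.09, 4.11 and 0.0559 TPM in mice 1 to 4 (log2 range 4.92, adjusted p = 0.0026), and Hoxb5, Hoxb6, Hoxb7 and Hoxb8, its neighbours on chromosome 11, likewise averaged at least 0.896 TPM in mice 2 and 3 and at most 0.243 TPM in mice 1 and 4. The peptide carrier Slc15a2 set mouse 1 apart, at 0.0203 TPM against 1.51, 4.07 and 3.80 TPM in mice 2 to 4 (adjusted p = 2.3e-14).

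The agonist libraries of mouse numbers 1 to 4 gave a second measurement of the same mice, although from the same organoid lines and under treatment. Of the 2469 called genes that could be tested there, 2435 again had the mean of the highest vehicle mouse above that of the lowest. Over all 8 of those libraries 157 of 15277 genes were called (1.03%), 155 of them also called in vehicle samples, and 153 of these 155 with the same highest mouse. For neither of these agreements was the share over all genes tested computed, so they have no background here. Without the norepinephrine library of mouse 4, 5073 of 15706 genes were called (32.3%), and the 2013 shared calls made up 81.2% of the vehicle calls and 39.7% of the agonist calls. Akp3, Pdx1, Slc40a1 and Reg1 had log2 differences of 6.99, 4.71, 3.83 and 3.41 between mouse 2 and mouse 3 in the agonist samples, close to those in vehicle samples. Since that single library changes the count this much, the count from all 8 rests on it.

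Set beside the agonist-treated samples, most genes listed here did not pass, but Paneth cell genes were lower with agonist once the mouse number was taken into account. Without a term for the mouse 15 of 15247 genes passed (0.0984%), 5 higher and 10 lower with agonist, with 3236 at p under 0.05 before adjustment. When the mouse number was entered as a block, 352 genes passed (2.31%), 78 higher and 274 lower, including all 15. Of 469 listed genes tested 3 were called without the block and 31 with it, 6 higher and 25 lower. The 3 were secretory cell products: Spink4 with a median of 2196 TPM in vehicle and 1747 TPM in agonist samples (log2 difference −0.39, adjusted p = 0.0165), Reg4 (−0.24, adjusted p = 0.0190) and Agr2, a goblet cell protein-folding enzyme (−0.18, adjusted p = 0.0332). Without the HCl sample of mouse 1 none of the 3 passed (adjusted p 0.0523, 0.0728 and 0.10), nor without the UK 14,304 sample of mouse 5 (0.0508, 0.0533 and 0.0777). Over all genes the count was then 0 in both cases, and it rose to 2131 without norepinephrine library 4.

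With the block, 9 of the 11 Paneth cell genes were called, all 9 of them lower with agonist, and none of these passed without it. Mptx2, a mucosal pentraxin, stood at 60.3 to 174 TPM in vehicle samples (median 140.2) and at 39.6 to 109 TPM in agonist samples (median 82.9), with a blocked log2 difference of −0.74 (adjusted p = 5.6e-08). Lysozyme (Lyz1) stood at 2833 to 5054 TPM in vehicle samples (median 4339) and at 2663 to 4197 TPM in agonist samples (median 3602), with a difference of −0.34 (adjusted p = 1.5e-05). The ranges of the 2 conditions overlapped, but within each of mice 1 to 4 both agonist samples lay below both vehicle samples for Mptx2 and for Lyz1. Defa22 (−0.69, adjusted p = 1.2e-05), Pla2g2a (−0.35, adjusted p = 0.0031), Mmp7 (−0.23, adjusted p = 0.0023) and Itln1 (−0.19, adjusted p = 0.0031) were also among the 9, whereas Mptx1 and Habp2 did not pass. The median blocked log2 difference was −0.23 over the list and −0.01 over all genes tested. Leaving out each library in turn, a choice made after seeing the data, gave 7 to 9 Paneth cell genes called, and the ribosomal RNA split as a further term gave 8. Over all genes the blocked count moved far more, from 66 without the DMSO sample of mouse 2 to 3852 without norepinephrine library 4.

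In no gene was the state reversed: 12578 genes were on and 25201 off in all 18 samples, and 0 genes were off in every vehicle sample and on in every agonist sample, or the reverse.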

How the data were processed

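Poly-A RNA of small intestinal organoids was sequenced as single-end reads of 50 bases. The authors deposited raw read counts per gene for 18 samples. Per the labels and the methods, reads were aligned with STAR 2.7.3 to GRCm38, with SAMtools 1.9, and counted with featureCounts of Subread 1.6.4. The file header names featureCounts 2.0.1, an Ensembl 102 annotation, and exons summed per gene without strand, multi-mapping or multi-gene reads. Which version made the deposited counts was not settled. Overlapping and antisense genes therefore cannot be told apart.

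TPM was computed from the counts and the exon length of the file. Means and SDs are over 4 mouse numbers, after averaging the HCl and DMSO samples of each. Uniqueness is the share of the 50-base stretches of a gene's main transcript (GENCODE M21, GRCm38) found in no other gene, and tests were run in R 4.3.3 with edgeR 4.0.16 (TMM, filterByExpr, robust quasi-likelihood F test, Benjamini-Hochberg adjustment), with DESeq2 1.42.0 as an alternative. Scripts were tested on simulated data. Python 3.11.15 was used for the rest. p-values measure the spread between samples, which may share a culture. Counting floors cover counting error only.

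The replicate numbers of HCl and DMSO samples pair them: the correlation of deviations from the vehicle means was 0.178, 0.463, 0.486 and 0.131 for numbers 1 to 4. Over all 4 treatments the 24 same-number pairs had −0.172 to 0.53 and the 72 others −0.443 to 0.265, the lowest same-number value being norepinephrine 4 with UK 14,304 4. The numbers come from the sample titles.

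Named genes are the 30 highest by median TPM, the highest and the off members of each list or family, the 10 genes with the lowest and the 10 with the highest coefficient of variation above 50 TPM, the 10 called genes with the widest range between mice at 5 TPM or more, and list members called for agonists. Hox genes and Slc15a2 in the test between mice were chosen after their values were seen. Some genes that this rule or the lists name are not reported here. The samples, lists and families were chosen with earlier results of these data known. Promoter matches were found for 16512 coding genes of the table.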

Additional observations from a re-analysis of the deposited data

Results flagged for a closer look

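Over 96 levels looked at (summed lists and named genes), 3 had a sample whose gap to the nearest other was wide for a group of 8, and chance flags about 1 in 20 such groups. The summed level of the Notch receptors and ligands was 133.3 TPM in the HCl sample of mouse 3, against 122.7 TPM in the next highest sample. The summed level of the lipid, nucleotide and metabolite receptors was 423.1 TPM in the HCl sample of mouse 2, against 393.4 TPM in the next highest. The ribosomal RNA gene n-R5-8s1 stood at 364.4 TPM in the DMSO sample of mouse 2, against 79.47 TPM in the next highest, and that library is one of the 4 with a high ribosomal RNA share.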

How the results depend on the processing

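The number of genes on (12890) stayed within 1.5 times under all 18 alternatives run, from 10120 at a minimum of 5 TPM to 14681 when 4 of 8 samples sufficed. With the replicate block, that is the mean of the pair of each mouse number, it was 13538, and leaving out each sample gave 12934 to 12977. The share of TPM in the 30 highest genes (17.7%) was 15.9% with CT010467.1 and mitochondrial genes left out, 19.7% with 49 bases taken off each length, 16.0% in HCl and 20.2% in DMSO samples, and 16.6% to 19.0% leaving out each sample.

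The count of genes differing between mice (2479) was 1429 with DESeq2 and 1614 at an adjusted p under 0.01, and 1844 to 3556 leaving out each sample. A term for the ribosomal RNA split gave 2032. The agonist libraries in place of the vehicle libraries, a choice made after seeing the data, gave 157, or 5073 without norepinephrine library 4.

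For agonists against vehicles (15 genes) the count was 47 without a filter, 538 with DESeq2, 352 with the mouse number as a replicate block, 93 with that block and the ribosomal RNA split, 3852 with that block but without norepinephrine library 4 (a choice made after seeing the data), and 0 at an adjusted p under 0.01. Leaving out each library gave 0 to 2131. The causes were not tested. Of 25 alternatives each, Agr2 lost its call in 12, Reg4 in 4 and Spink4 in 2, with the direction kept.

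Depth limits the off calls of short genes, multi-mapping reads limit gene families with near-identical members, and with 4 mice the SDs are imprecise.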
